A study of Mus musculus with 8 samples.

Results

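The nuclear genes that encode subunits of the 5 complexes of the mitochondrial respiratory chain were followed through naive B cells from mouse spleen. Members were all entries of the expression table whose symbol begins with Ndufa, Ndufb, Ndufc, Ndufs or Ndufv and a digit (complex I), is Sdha to Sdhd (complex II), begins with Uqcr (complex III), with Cox and a digit from 4 to 8 (complex IV) or with Atp5 (complex V). This gave 84 of 23302 entries: 37 for complex I, 4 for complex II, 8 for complex III, 18 for complex IV and 17 for complex V. A mean of at least 10 normalized counts over the 8 libraries was required for testing, and 80 members reached it: 36, 4, 8, 15 and 17 in the same order. Sequences, levels and comparisons below are of these 80 unless stated. The name is broader than the biology in a few cases: Ndufa4 is now known as a complex IV protein, Cox7a2l as a factor that joins complexes III and IV, and Atp5s and Atp5sl (Dmac2l and Dmac2 in RefSeq) are not structural parts of ATP synthase.

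RNA was sequenced from 8 libraries in 4 groups of 2, all from C57BL/6 mice. WT nontumor and WT tumor are B cells of wild-type mice without and with a pancreatic tumor. BEBi3-/- nontumor and BEBi3-/- tumor are B cells of mice with the genotype label B-EBi3-, written BEBi3-/- in the study's own text; Ebi3 encodes a subunit shared by the cytokines IL-35 and IL-27. A tumor status of WT in the labels was read as tumor-free. Age, sex, tumor model and the promoter that drives the deletion were not given in the sources used here. Nothing in the labels ties the libraries of a group to separate mice. Each p-value rests on the spread within groups, pooled over the 4 groups and moderated over genes. That spread may be technical.

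The respiratory chain moves electrons from NADH (complex I) and succinate (complex II) through coenzyme Q to complex III, then through cytochrome c to oxygen at complex IV. Complexes I, III and IV pump protons across the inner mitochondrial membrane, and complex V, the ATP synthase, lets them back in to make ATP. Each complex other than II mixes subunits made from nuclear genes with a few made inside the mitochondrion, and resting B cells are known to raise respiration when they are activated. The mitochondrially encoded subunits could not be analysed here, since 0 of the 13 symbols searched for them had an entry.

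Library depth was 21291892 to 28297319 reads. Ebi3 itself gave 201 and 164 normalized counts in WT tumor and 8.7 to 12.8 in every other library, so it separated the genotypes in tumor mice and not in nontumor mice. The WT tumor libraries differed from the other 6 in the prefix of their titles (IV against OT) and in sex: Xist was at 19760 and 26190 normalized counts there and at 5.59 to 18.3 elsewhere, and the Y-linked Uty was at 0 there and at 469 to 598 elsewhere. Every comparison that uses the WT tumor libraries therefore carries a difference in sex and in prefix that cannot be told apart from tumor or genotype. Neither difference enters the comparison of BEBi3-/- tumor with BEBi3-/- nontumor mice, nor that between the nontumor groups. The BEBi3-/- tumor libraries were closer to each other than other pairs (median difference per gene of 0.0628 log2 units against 0.122 to 0.179). On average over genes their reads still differed by more than sampling noise (mean chi-square of 2.01, where sampling alone gives about 1). In the other pairs this mean was 13.1 to 20.3. The median chi-square was 0.565 in BEBi3-/- tumor, against 1.78 to 2.99 in the other pairs. The reference of about 1 is for the mean and not for the median. The BEBi3-/- tumor libraries were kept as 2 libraries. B cell markers were abundant in every library (8 of 10 in the table, 0.757 to 1.2% of all normalized counts). Markers of monocytes and macrophages summed to 0.432 to 0.467% in WT nontumor, 0.0502 to 0.0571% in WT tumor, 0.398 to 0.49% in BEBi3-/- nontumor and 0.264 to 0.266% in BEBi3-/- tumor, and erythroid markers to 0.733 to 0.786%, 0.0862 to 0.123%, 1.24 to 1.78% and 0.324 to 0.333%. None of the markers in these lists was at 0 in every library. In bulk RNA, fewer cells of a type and less RNA per cell cannot be told apart, and the part of these other cells in the results below was not tested.

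Promoters are shown for 4 members that mark the range of the values described below: Uqcr11 and Atp5e, with among the largest falls in WT tumor, Sdha, with a small one, and Atp5sl, which rose. Each window is 300 bases around the annotated start, from RefSeq on GRCm38.p6, on the gene's own strand from 5′ to 3′. Capitals mark exact matches, on either strand, to GCGCATGC (a core of the NRF1 site), CCGGAAG (bound by ETS factors such as GABPA) and AAGATGG (a core of the YY1 site), 3 motifs long tied to nuclear genes of mitochondria. Uqcr11 lies at chr10:80406772-80407071 on the minus strand and Atp5e at chr2:174464052-174464351 on the minus strand. Sdha lies at chr13:74350191-74350490 on the minus strand, and Atp5sl at chr7:25619164-25619463 on the plus strand (the first of its 2 windows).
Uqcr11: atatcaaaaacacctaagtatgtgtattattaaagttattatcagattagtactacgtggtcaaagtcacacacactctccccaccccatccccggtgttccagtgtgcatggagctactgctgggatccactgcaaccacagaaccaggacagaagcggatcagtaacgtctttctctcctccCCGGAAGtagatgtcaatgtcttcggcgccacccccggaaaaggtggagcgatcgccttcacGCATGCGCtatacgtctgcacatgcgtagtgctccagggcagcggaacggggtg
Atp5e: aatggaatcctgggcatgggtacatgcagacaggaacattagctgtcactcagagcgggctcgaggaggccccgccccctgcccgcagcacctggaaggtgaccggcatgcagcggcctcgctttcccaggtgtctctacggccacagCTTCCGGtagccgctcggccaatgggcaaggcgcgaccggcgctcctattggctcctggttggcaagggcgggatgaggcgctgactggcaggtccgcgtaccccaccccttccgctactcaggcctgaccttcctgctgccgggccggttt
Sdha: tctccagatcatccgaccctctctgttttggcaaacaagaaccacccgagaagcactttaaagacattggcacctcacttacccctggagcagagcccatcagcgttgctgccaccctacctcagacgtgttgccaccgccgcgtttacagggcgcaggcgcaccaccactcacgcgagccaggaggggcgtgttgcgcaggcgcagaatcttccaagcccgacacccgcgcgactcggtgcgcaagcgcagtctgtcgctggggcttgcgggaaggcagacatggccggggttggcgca
Atp5sl: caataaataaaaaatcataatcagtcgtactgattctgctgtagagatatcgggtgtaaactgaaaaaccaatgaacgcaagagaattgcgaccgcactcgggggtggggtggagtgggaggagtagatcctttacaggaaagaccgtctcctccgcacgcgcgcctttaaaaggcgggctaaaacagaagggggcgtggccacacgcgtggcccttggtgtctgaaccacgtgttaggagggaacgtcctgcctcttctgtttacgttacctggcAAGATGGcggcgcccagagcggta
The Uqcr11 window holds an ETS and an NRF1 match, the Atp5e window an ETS match and the Atp5sl window a YY1 match, while the Sdha window has no exact match to these letters. RefSeq windows were found for 67 of the 80 members (73 windows). The NRF1 letters stood in 13.7% of the member windows against 2.71% of all 32851 windows. The ETS letters stood in 21.9% against 8.86%, and the YY1 letters in 17.8% against 6.34%. Other letters searched were CACGTG (12.3% against 7.15%), CCAAT (42.5% against 37.4%) and TATAAA (8.22% against 13.6%). The motifs were searched separately, and a window may hold several. All windows were not matched to the member windows in GC content. Between WT tumor and WT nontumor, members with and without a motif had median log2 differences of -1.74 (10 members) and -1.65 (57) for NRF1, -1.76 (16) and -1.64 (51) for ETS, and -1.61 (12) and -1.68 (55) for YY1.

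Together the members made up 1.28 ± 0.098% of all normalized counts in WT nontumor, 0.641 ± 0.0476% in WT tumor, 1.22 ± 0.0356% in BEBi3-/- nontumor and 1.01 ± 0.00313% in BEBi3-/- tumor (mean ± SD, n = 2 each). In single libraries the share was 1.22 and 1.35% for WT nontumor, 0.674 and 0.607% for WT tumor, 1.19 and 1.24% in BEBi3-/- nontumor, and 1.004 and 1.009% in BEBi3-/- tumor. Both tumor groups lay below both nontumor groups, with WT tumor lowest. Complex V held the largest share (0.492% in WT nontumor and 0.263% in WT tumor), followed by complex I (0.310 and 0.150%), complex IV (0.270 and 0.111%), complex III (0.142 and 0.0685%) and complex II (0.0687 and 0.0484%). On the authors' DESeq2 scale the drop was larger, because the normalized counts of all genes summed to 29138293 and 29853692 for WT nontumor and to 21758733 and 21374390 for WT tumor: the members' summed normalized counts went from 378955 ± 35406 to 138223 ± 11999, a log2 ratio of -1.46 against -1.0 for the share.

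**Figure D1:**
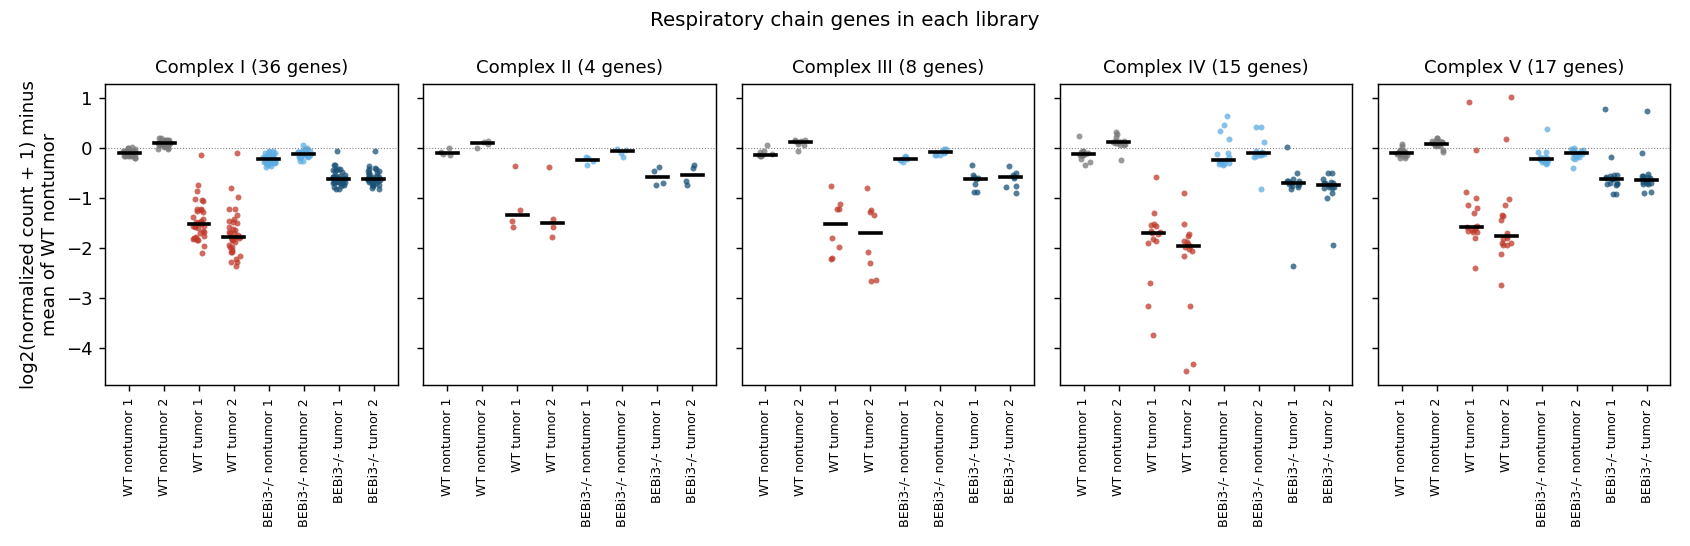
Each point is 1 tested member in 1 library, as log2(normalized count + 1) minus its mean over the WT nontumor libraries; bars are medians, and panels are complexes I to V. In all 5 panels the WT tumor medians lie lowest and the BEBi3-/- tumor medians lie between them and the nontumor libraries; over all 80 members the medians are -1.55 and -1.78 in WT tumor, and -0.64 in both BEBi3-/- tumor libraries.

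**Figure D2:**
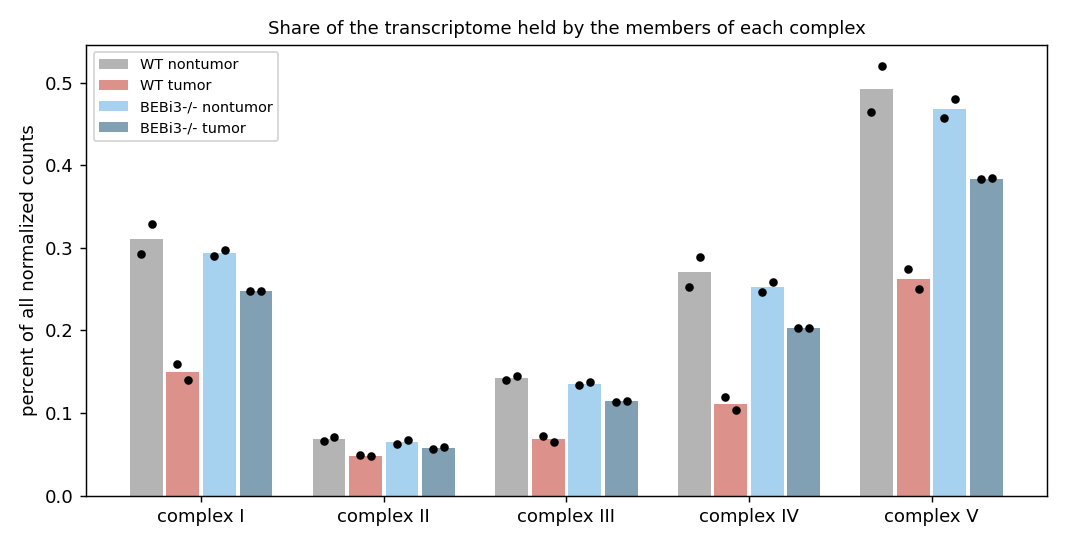
Bars are the mean percent of all normalized counts held by the members of each complex in each group (axis from 0), and black points are the 2 libraries of the group. Complex V falls from 0.492% to 0.263% and complex II from 0.0687% to 0.0484% between WT nontumor and WT tumor, and all BEBi3-/- tumor points lie between the WT tumor and the nontumor points of their complex.

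Nearly the whole chain was lower in B cells of WT mice with a tumor. Of 80 members, 76 were called lower and 1 higher, with a median log2 difference of -1.68 (limma, adjusted p below 0.05 over all 13011 genes). Of all genes tested, 40.1% were called lower and 39.6% higher, with a median of 0.01. By complex, 35 of 36 members of complex I, 4 of 4 of complex II, 8 of 8 of complex III, 14 of 15 of complex IV and 15 of 17 of complex V fell, with medians of -1.64, -1.42, -1.61, -1.82 and -1.70. A core list of 15 subunits (7 conserved subunits of complex I, the 4 of complex II, Uqcrfs1, Atp5a1, Atp5b and Atp5c1) had a median of -1.28 (14 lower), and the 58 other structural subunits, isoforms left out, one of -1.72 (58 lower); the difference between these lists was not tested. In the same comparison 13 of 13 monocyte and macrophage markers and 13 of 13 erythroid markers fell, with medians of -3.57 and -4.03, as did granulocyte markers in 9 of 9 cases, NK cell and dendritic cell markers each in 7 of 8, platelet markers in 6 of 8, T cell markers in 6 of 9 and plasma cell markers in 4 of 6 (1 rose), while B cell markers rose in 5 of 8 and fell in 2. The X-linked members gave log2 differences of -1.66 (Ndufa1), -1.38 (Ndufb11) and -1.63 (Cox7b), within the range of the others. These values cannot separate sex from tumor, and the part of sex was not tested.

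In complex I, the electron entry arm that oxidizes NADH includes the flavin and iron-sulfur subunits Ndufv1, Ndufv2, Ndufs1, Ndufs7 and Ndufs8, and Ndufs3 beside them. Ndufv1 measured 2960 and 3387 normalized counts in the WT nontumor libraries, 1371 and 1185 in WT tumor, 2816 and 2841 in BEBi3-/- nontumor, and 1959 and 2018 in BEBi3-/- tumor. Ndufv2 measured 3438 and 3941 normalized counts in WT mice without a tumor and 1301 and 1139 with one, and 3032 and 3433 in BEBi3-/- mice without a tumor and 2491 and 2491 with one. Both nontumor groups lay above both tumor groups for each gene, and the log2 difference in WT was -1.31 ± 0.0939 for Ndufv1 and -1.60 ± 0.101 for Ndufv2 (limma estimate ± SE, adjusted p = 3.89e-06 and 2.21e-06). Ndufs1, the largest iron-sulfur subunit of the complex, stood apart. Ndufs1 gave 2284 and 2211 normalized counts in WT nontumor against 2032 and 2087 in WT tumor, and 2104 and 2242 in BEBi3-/- nontumor against 2152 and 2150 in BEBi3-/- tumor. The tumor difference in WT was -0.13 ± 0.0684 (limma adjusted p = 0.118), and that in BEBi3-/- was -0.01, with libraries that overlapped. When each library was scaled to the same total count instead, an alternative chosen after seeing the data, the WT difference of Ndufs1 was 0.33 (limma adjusted p = 0.00158).

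Ndufs3, Ndufs7 and Ndufs8 fell in WT, and Ndufs3 and Ndufs7 lost that call under the length and GC correction described below. Ndufs3 had 2374 and 2820 normalized counts in the WT nontumor libraries, 1255 and 1030 in WT tumor, 2319 and 2332 in BEBi3-/- nontumor, and 1947 and 1948 in BEBi3-/- tumor. Ndufs3, a subunit of the arm that reaches into the matrix, differed by -1.19 ± 0.111 in WT, and its WT tumor libraries were below all others. Ndufs7 reached 1206 and 1506 normalized counts in WT mice without a tumor and 574 and 415 with one, and 1225 and 1291 in BEBi3-/- mice without a tumor and 920 and 1025 with one. Ndufs8 came to 2812 and 3421 normalized counts in WT nontumor against 1167 and 974 in WT tumor, and 2733 and 3031 in BEBi3-/- nontumor against 2233 and 2257 in BEBi3-/- tumor. Ndufs7 and Ndufs8, which carry the last iron-sulfur clusters before coenzyme Q, differed by -1.46 ± 0.159 and -1.54 ± 0.118 (limma adjusted p = 3.62e-05 and 5.39e-06).

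The other 29 tested members matched as complex I, accessory subunits apart from Ndufa4, all fell in WT. Ndufa7 had the largest fall. Ndufa7 was at 3089 and 3322 normalized counts in the WT nontumor libraries, 747 and 622 in WT tumor, 2629 and 2826 in BEBi3-/- nontumor, and 1827 and 1852 in BEBi3-/- tumor. Its WT tumor libraries were below all others, and the log2 difference was -2.23 ± 0.0973 (limma adjusted p = 4.01e-07), a 4.69-fold lower level on the scale of the normalized count plus 1. Ndufa2 followed at -2.12 ± 0.125. Ndufa2 stood at 2781 and 3429 normalized counts in WT mice without a tumor and 794 and 637 with one, and 2867 and 2782 in BEBi3-/- mice without a tumor and 1921 and 1998 with one. Ndufa10, a longer accessory subunit, fell least, by 0.77 on the log2 scale. Ndufa10 gave 2055 and 2111 normalized counts in WT nontumor against 1247 and 1196 in WT tumor, and 2011 and 2174 in BEBi3-/- nontumor against 1639 and 1560 in BEBi3-/- tumor. The remaining accessory members lay between these values.

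Complex II, succinate dehydrogenase, is the chain's only complex without mitochondrially encoded subunits and is also an enzyme of the citric acid cycle. Sdha measured 7943 and 7969 normalized counts in the WT nontumor libraries, 6205 and 6137 in WT tumor, 7003 and 7777 in BEBi3-/- nontumor, and 6132 and 6278 in BEBi3-/- tumor. Sdha, the flavoprotein that oxidizes succinate, differed by -0.37 ± 0.0717 in WT (limma adjusted p = 0.00129) and was nearly equal in the WT tumor and BEBi3-/- tumor libraries, which overlapped. Its direction in WT depended on the scaling: with each library set to the same total count the difference was 0.09 (limma adjusted p = 0.21). Sdhb had 3121 and 3807 normalized counts in WT mice without a tumor and 1464 and 1287 with one, and 2992 and 3400 in BEBi3-/- mice without a tumor and 2494 and 2599 with one. Sdhc held 3111 and 3707 normalized counts in WT nontumor against 1242 and 1135 in WT tumor, and 2848 and 3190 in BEBi3-/- nontumor against 2048 and 2024 in BEBi3-/- tumor. Sdhd reached 5127 and 5777 normalized counts in the WT nontumor libraries, 1822 and 1586 in WT tumor, 4290 and 4831 in BEBi3-/- nontumor, and 3349 and 3467 in BEBi3-/- tumor. The iron-sulfur subunit Sdhb differed by -1.33 ± 0.113, and the membrane anchors Sdhc and Sdhd by -1.52 ± 0.101 and -1.68 ± 0.098. The estimates of the 4 genes thus ran from -0.37 to -1.68, and the differences between them were not tested.

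Complex III holds a pair of large core proteins, the Rieske protein and several small subunits. Uqcrc2 gave 6014 and 6479 normalized counts in WT mice without a tumor and 3708 and 3606 with one, and 5447 and 6139 in BEBi3-/- mice without a tumor and 4909 and 4881 with one. Uqcrc1 was at 4955 and 6077 normalized counts in WT nontumor against 2543 and 2326 in WT tumor, and 4908 and 5122 in BEBi3-/- nontumor against 3612 and 3702 in BEBi3-/- tumor. Uqcrfs1 came to 4699 and 5283 normalized counts in the WT nontumor libraries, 2140 and 1967 in WT tumor, 4305 and 4794 in BEBi3-/- nontumor, and 3412 and 3525 in BEBi3-/- tumor. The core proteins Uqcrc2 and Uqcrc1 differed by -0.77 ± 0.0786 and -1.17 ± 0.0999 in WT, and Uqcrfs1, the Rieske iron-sulfur protein, by -1.28 ± 0.0881. Uqcr11 measured 1706 and 2115 normalized counts in WT mice without a tumor and 407 and 300 with one, and 1575 and 1727 in BEBi3-/- mice without a tumor and 1027 and 1025 with one. Uqcrq measured 1582 and 1982 normalized counts in WT nontumor against 387 and 284 in WT tumor, and 1512 and 1611 in BEBi3-/- nontumor against 970 and 1049 in BEBi3-/- tumor. Uqcr11 and Uqcrq, both small membrane subunits, had log2 differences of -2.44 ± 0.15 and -2.41 ± 0.154 (limma adjusted p = 1.95e-06 and 2.34e-06), 5.42-fold and 5.33-fold lower. Uqcrb, a small subunit on the matrix side, differed by -1.25 in WT, close to Uqcrfs1. For Uqcr11 and Uqcrq, the 4 nontumor libraries were highest, BEBi3-/- tumor intermediate and WT tumor lowest, with no overlap between these 3 levels. Uqcrh, the hinge protein that docks cytochrome c1, was the most abundant member per kilobase of transcript in complex III in every group, at 29873 normalized counts per kilobase in WT nontumor and 7830 in WT tumor.

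**Figure D3:**
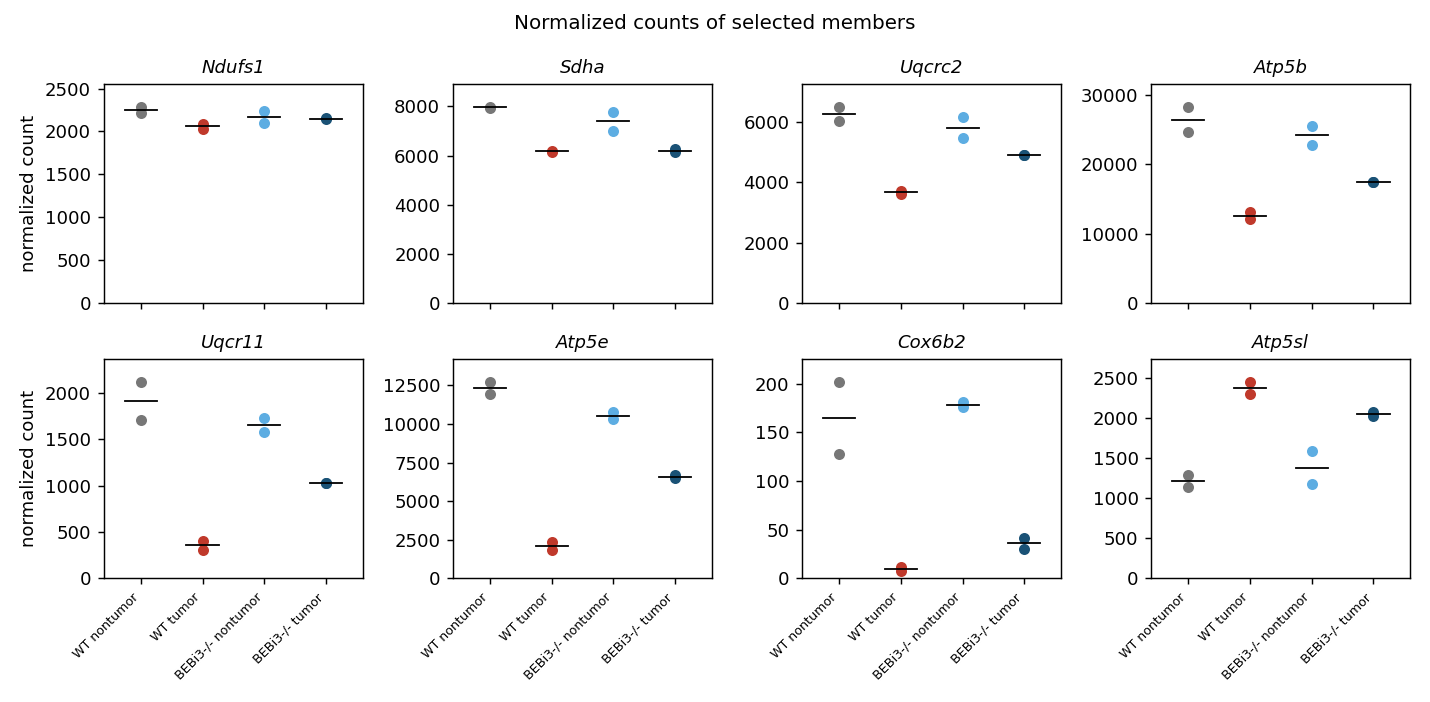
Normalized counts (axes from 0) of 8 members in each library; points are libraries and bars are the mean of the 2 libraries of a group. Ndufs1 stays between 2032 and 2284 in all libraries, Uqcr11, Atp5e and Cox6b2 are lowest in WT tumor, and Atp5sl is higher in both tumor groups than in both nontumor groups.

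Complex IV reduces oxygen, and its nuclear subunits surround a mitochondrially encoded core; several have tissue-restricted isoforms. Cox4i1 was at 15643 and 19112 normalized counts in the WT nontumor libraries, 4658 and 3877 in WT tumor, 14633 and 15362 in BEBi3-/- nontumor, and 10373 and 10417 in BEBi3-/- tumor. Cox5a came to 4308 and 5236 normalized counts in WT mice without a tumor and 1486 and 1252 with one, and 3769 and 4454 in BEBi3-/- mice without a tumor and 2885 and 2932 with one. Cox5b gave 2664 and 3113 normalized counts in WT nontumor against 985 and 856 in WT tumor, and 2336 and 2577 in BEBi3-/- nontumor against 1823 and 1778 in BEBi3-/- tumor. These 3 widely expressed subunits differed in WT by -2.02 ± 0.114, -1.80 ± 0.124 and -1.65 ± 0.103 (limma adjusted p = 1.34e-06, 3.3e-06 and 2.13e-06), and in each case BEBi3-/- tumor lay between WT tumor and the nontumor libraries. Cox7a2l had the smallest called fall of the complex, -1.41 ± 0.099. Cox7a2l held 18980 and 20997 normalized counts in the WT nontumor libraries, 8098 and 6985 in WT tumor, 16717 and 18891 in BEBi3-/- nontumor, and 14074 and 14162 in BEBi3-/- tumor.

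The restricted isoforms were at far lower levels. Cox6b2 had 127 and 202 normalized counts in WT mice without a tumor and 11.1 and 7.08 with one, and 181 and 176 in BEBi3-/- mice without a tumor and 30.4 and 41.2 with one. Cox6b2, known from testis, differed by -4.03 ± 0.3 in WT (limma adjusted p = 4.75e-06) and by -2.30 ± 0.3 in BEBi3-/- (limma adjusted p = 0.00138), the largest falls of any member in both. Cox6a2 measured 83.8 and 60.4 normalized counts in WT nontumor against 7.15 and 7.08 in WT tumor, and 90.7 and 95.5 in BEBi3-/- nontumor against 46.1 and 50.4 in BEBi3-/- tumor. Cox6a2, the heart and muscle isoform, differed by -3.15 ± 0.245 and -0.93 ± 0.245 (limma adjusted p = 5.81e-06 and 0.0235). Cox4i2 measured 20.1 and 21.9 normalized counts in the WT nontumor libraries, 2.38 and 0 in WT tumor, 29.4 and 11.5 in BEBi3-/- nontumor, and 13 and 10.1 in BEBi3-/- tumor. Cox4i2, an isoform induced by low oxygen, differed by -3.58 ± 0.668 in WT and, with overlapping libraries, by -0.64 ± 0.668 in BEBi3-/- (limma adjusted p = 0.000971 and 0.474). Cox7a1 measured 8.94 and 13.7 normalized counts in WT mice without a tumor and 7.15 and 5.51 with one, and 17.9 and 15.3 in BEBi3-/- mice without a tumor and 11.3 and 5.5 with one. Cox7a1, another muscle isoform, passed the threshold in none of the comparisons. The members below the level for testing were Ndufa4l2 (0 to 2.74 normalized counts), Cox7b2 (0 to 3.15), Cox8b (0 to 1.83) and Cox8c (0 in every library).

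Complex V couples a catalytic head to a membrane rotor and stalk. Atp5a1 gave 23217 and 27214 normalized counts in WT nontumor against 13716 and 12377 in WT tumor, and 21592 and 25126 in BEBi3-/- nontumor against 17101 and 17177 in BEBi3-/- tumor. Atp5b was at 24642 and 28229 normalized counts in the WT nontumor libraries, 13157 and 12040 in WT tumor, 22773 and 25573 in BEBi3-/- nontumor, and 17449 and 17406 in BEBi3-/- tumor. Atp5c1 came to 10213 and 11227 normalized counts in WT mice without a tumor and 4672 and 4184 with one, and 8709 and 10124 in BEBi3-/- mice without a tumor and 7417 and 7274 with one. The head subunits alpha (Atp5a1) and beta (Atp5b) differed by -0.95 ± 0.107 and -1.07 ± 0.0961 in WT, and gamma (Atp5c1), the central shaft, by -1.28 ± 0.0953, with every tumor library below every nontumor library. Atp5e measured 11969 and 12708 normalized counts in WT nontumor against 2333 and 1844 in WT tumor, and 10296 and 10797 in BEBi3-/- nontumor against 6522 and 6663 in BEBi3-/- tumor. Atp5e, the small epsilon subunit of the shaft, had the largest fall of the complex, -2.57 ± 0.106 (limma adjusted p = 3.05e-07) or 5.95-fold. Per kilobase of transcript it was the most abundant complex V member in WT nontumor (29308), BEBi3-/- nontumor (25051) and BEBi3-/- tumor (15659), while in WT tumor it stood at 4960 and Atp5b was highest at 6575. The rotor ring is encoded by Atp5g1, Atp5g2 and Atp5g3, whose mature peptides are the same; they differed by -1.95, -1.78 and -1.73. Atp5g1 measured 2729 and 3571 normalized counts in the WT nontumor libraries, 900 and 723 in WT tumor, 2742 and 2678 in BEBi3-/- nontumor, and 1647 and 1695 in BEBi3-/- tumor. Reads shared among these 3 genes, or between members and their processed pseudogenes, could have been split by the authors' counting, and single values of such members are uncertain.

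The 2 complex V entries that are not structural subunits did not follow the others. Atp5sl measured 1287 and 1140 normalized counts in WT mice without a tumor and 2295 and 2446 with one, and 1584 and 1170 in BEBi3-/- mice without a tumor and 2072 and 2025 with one. Atp5sl (Dmac2, known for complex I assembly) rose by 0.97 ± 0.133 in WT and by 0.59 ± 0.133 in BEBi3-/- (limma adjusted p = 0.000148 and 0.0144), and both tumor groups lay above both nontumor groups. Atp5s measured 155 and 148 normalized counts in WT nontumor against 147 and 172 in WT tumor, and 143 and 115 in BEBi3-/- nontumor against 133 and 141 in BEBi3-/- tumor. Atp5s (Dmac2l) differed by 0.07 ± 0.161 and 0.10 ± 0.161, with overlapping libraries in each genotype (limma adjusted p = 0.708 and 0.658); in WT it was called higher with total-count scaling (0.52, limma adjusted p = 0.0223).

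In BEBi3-/- B cells the same complexes were lower with a tumor, by less. Of 80 members 68 were called lower and 1 higher, with a median log2 difference of -0.46, against 18.5% lower and 14.1% higher over all genes (median -0.01). The count was 29 of 36 in complex I, 3 of 4 in complex II, 8 of 8 in complex III, 13 of 15 in complex IV and 15 of 17 in complex V, with medians of -0.45, -0.37, -0.44, -0.57 and -0.47. The largest called falls after Cox6b2 and Cox6a2 were in Atp5g1 (-0.70 ± 0.137), Uqcr11 (-0.68 ± 0.15) and Atp5e (-0.68 ± 0.106). Ndufc2 measured 1834 and 2438 normalized counts in the WT nontumor libraries, 607 and 474 in WT tumor, 1752 and 1915 in BEBi3-/- nontumor, and 1230 and 1200 in BEBi3-/- tumor. Its difference of -0.59 ± 0.151 was the largest fall in complex I (limma adjusted p = 0.0214), and that of Sdhc the largest in complex II (-0.57 ± 0.101, limma adjusted p = 0.00604). Monocyte and macrophage markers fell in 11 of 13 cases here (median -0.96) and erythroid markers in 13 of 13 (-2.72). Granulocyte markers fell in 7 of 9 and dendritic cell markers in 3 of 8, whereas plasma cell markers rose in 5 of 6 and fell in 1. T cell markers fell in 1 of 9 (median 0.31), and 0 of 8 NK cell markers (0.33) and 0 of 8 platelet markers (-0.05) were called. B cell markers rose in 2 of 8 and fell in 0. Besides Ndufs1, Cox4i2, Cox7a1 and Atp5s, those that did not pass included Ndufa11 (-0.41), Ndufb3 (-0.31), Ndufs3 (-0.26), Ndufs5 (-0.25), Ndufs7 (-0.37) and Sdhb (-0.33), whose adjusted p lay between 0.0507 and 0.103. The number of calls was much smaller without either BEBi3-/- tumor library, with both averaged as 1 sample, and without BEBi3-/- nontumor replicate 2. Each of these fits leaves 1 library in a group, and the cause of the drop was not tested. With each library scaled to the same total count, 44 members were called lower in BEBi3-/- and 75 in WT, against 10.4% and 27.1% of all genes; that scaling took the median of all genes to 0.17 in BEBi3-/- and 0.46 in WT, and the split of all calls in WT from 5221 lower and 5157 higher to 3525 and 7023.

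**Figure D4:**
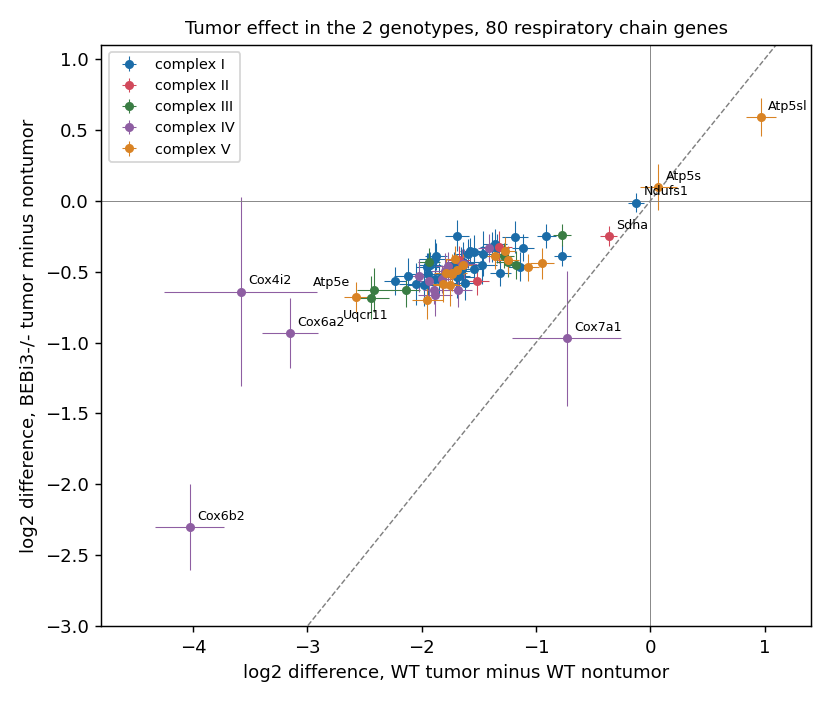
Each point is 1 of the 80 tested members, with its log2 difference between tumor and nontumor in WT (x axis) and BEBi3-/- (y axis). Bars are standard errors, and the dashed line marks equal effects. Over all 13011 genes, not drawn, the quartiles were -0.85 and 0.85 in WT and -0.29 and 0.30 in BEBi3-/-. In 78 of 80 members the value is smaller in size in BEBi3-/-, with medians of -1.68 and -0.46; Cox6b2 is farthest out (-4.03 and -2.30), Ndufs1 (-0.13 and -0.01; above 0 in both with total-count scaling) and Atp5s (0.07 and 0.10; 0.52 in WT with total-count scaling) lie near 0, and Atp5sl lies above 0 in both.

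The 2 tumor effects share no library. The effect was smaller in size in BEBi3-/- in 78 of 80 members. Values over all 13011 genes were smaller as well, with quartiles of -0.85 and 0.85 in WT and of -0.29 and 0.30 in BEBi3-/-. How many of all genes had a smaller effect was not counted. The ranks of the members in the 2 genotypes were related (Spearman rho of 0.713 over 80 members and 0.804 over 13011 genes, given as a description). Tested as an interaction, the tumor effect was less negative in BEBi3-/- than in WT for 75 members and more negative for 0, with a median of 1.20, against 27.5% and 25.4% of all genes. The largest interaction was 2.94 ± 0.944 in Cox4i2, a gene at 2.38 and 0 normalized counts in WT tumor (limma adjusted p = 0.0282, and 1.85 with an adjusted p of 0.139 under the length and GC correction described below), then 2.22 ± 0.347 in Cox6a2 and 1.89 ± 0.149 in Atp5e (limma adjusted p = 0.00119 and 0.000102). Ndufa7 (1.66 ± 0.138), Uqcrq (1.79 ± 0.218) and Sdhd (1.26 ± 0.139) were the largest in complexes I, III and II. Those that did not pass were Ndufs1 (0.11), Sdha (0.12), Cox7a1 (-0.24), Atp5s (0.03) and Atp5sl (-0.38).

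Compared directly among tumor mice, 75 members were higher in BEBi3-/- than in WT and 0 were lower, against 31.9% and 28.6% of all genes, with a median log2 difference of 1.04; this comparison shares its libraries with the interaction and is not separate evidence. Monocyte and macrophage markers were higher in 13 of 13 cases as well (median 2.43) and erythroid markers in 13 of 13 (1.82). Granulocyte markers were higher in 8 of 9, NK cell markers in 8 of 8 and plasma cell markers in 5 of 6. T cell markers were higher in 7 of 9, and platelet and dendritic cell markers each in 6 of 8. B cell markers were lower in 5 of 8 and higher in 2 (median -0.31). The chain members that did not pass were the same 5 as in the interaction. Complex medians were 1.03 (I), 0.83 (II), 1.04 (III), 1.09 (IV) and 1.04 (V). Cox4i2 (2.76 ± 0.668) and Cox6a2 (2.60 ± 0.245) stood highest. Among the widely expressed subunits Atp5e was 3.18-fold higher (1.67 ± 0.106), Uqcrq 3.04-fold (1.60 ± 0.154), Uqcr11 2.93-fold (1.55 ± 0.15) and Ndufa2 2.75-fold (1.46 ± 0.125), whereas Sdha differed by 0.01 ± 0.0717 (limma adjusted p = 0.932) and Ndufs1 by 0.06 ± 0.0684. With total-count scaling 74 members were called higher and 2 lower, and the split of all genes went from 4151 higher and 3715 lower to 3111 and 5084 (in the interaction, from 3579 and 3302 to 2455 and 4917, with 73 members higher and 1 lower). On that scale Sdha was called lower in BEBi3-/- tumor than in WT tumor (-0.18, limma adjusted p = 0.0259), and Atp5sl likewise (-0.40, limma adjusted p = 0.0474).

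Among nontumor mice no member was called in either direction (0 of 80), and neither was any other gene (0% lower and 0% higher of 13011). At an unadjusted p below 0.05 there were 6 members and 1049 of all genes; edgeR called 0 genes and DESeq2 21. The members nevertheless leaned one way: 75 of 80 had a lower mean in BEBi3-/-, with a median log2 difference of -0.16. Of all 13011 genes 6317 were lower, with a median of 0.01. The member median was -0.07 under the length and GC correction described below. With total-count scaling it was -0.08, and that of all genes was 0.09. Ndufb6 measured 1365 and 1480 normalized counts in WT mice without a tumor and 411 and 363 with one, and 1117 and 1240 in BEBi3-/- mice without a tumor and 903 and 889 with one. Ndufb6, an accessory subunit of complex I, had the lowest value (-0.27 ± 0.0968) and Cox7a1 the highest (0.54 ± 0.477). A lean of this size was also seen between replicates. The members differed by a median of 0.21 between WT nontumor replicates 2 and 1, with 74 of 80 higher in replicate 2, by -0.21 between the WT tumor replicates (77 of 80 lower in replicate 2) and by 0.12 between the BEBi3-/- nontumor replicates, while the medians over all genes were within 0.01 of 0. Members thus moved together from library to library within a group, and are not independent measurements of a condition.

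The members share a feature that the rule did not use: they are short. Their median transcript was 756.5 bases with a coding length of 426 bases, against 2812 and 1374 over the genes tested. Across members the tumor effect in WT followed coding length (Spearman rho = 0.626, n = 80), as did that in BEBi3-/- (rho = 0.549); over 12866 genes with a known transcript the rho with transcript length was 0.448 and 0.263. The 19 members with a coding length under 300 bases had a median log2 difference of -1.85 in WT, the 39 of 300 to 600 bases one of -1.71, the 11 of 600 to 1000 bases one of -1.33, and the 11 longer ones one of -0.95. The coding length is 156 bases for Atp5e, 168 for Uqcr11, 1992 for Sdha and 2181 for Ndufs1. Length also moved with the libraries inside a group: between the WT tumor replicates the rho of the difference with transcript length was 0.358 over all genes, and between the WT nontumor replicates -0.34.

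**Figure D5:**
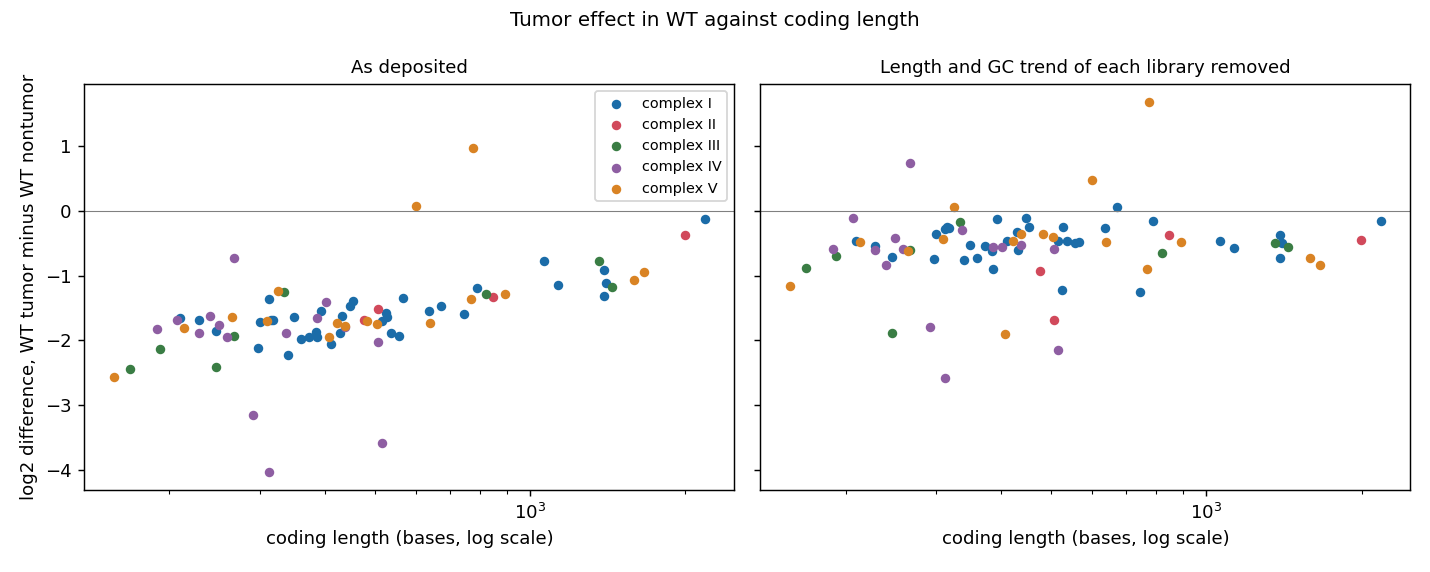
Log2 difference between WT tumor and WT nontumor (y axis) against coding length in bases (x axis, log scale) for the 80 members, coloured by complex, as deposited (left) and after removal of the trends on length and GC content within libraries (right). On the left the values climb with length (Spearman rho 0.626); on the right the relation is weaker (0.138) and most members are still below 0.

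A smooth trend of the log2 values on transcript length and GC content can be fitted over all genes in every library. With it removed, the median of the members in WT went from -1.68 to -0.50, with 70 called lower against 38.1% of all genes, and in BEBi3-/- from -0.46 to -0.22, with 39 called lower against 18.8%. The rho with coding length was then 0.138 and 0.213. In BEBi3-/- 9 of 36 members of complex I were still called lower, against the 18.8% of all genes. The counts were 3 of 4 in complex II, 6 of 8 in III, 9 of 15 in IV and 12 of 17 in V. The complex medians in BEBi3-/- were -0.20 (I), -0.26 (II), -0.28 (III), -0.28 (IV) and -0.22 (V). In WT the complex medians became -0.47 (I), -0.69 (II), -0.62 (III), -0.59 (IV) and -0.48 (V), that of the core list -0.49 and that of the 58 other structural subunits -0.50. The largest falls were then in Cox6b2 (-2.58), Cox4i2 (-2.14), Atp5g1 (-1.90), Uqcrq (-1.88), Cox6a2 (-1.79), Sdhc (-1.68), Ndufv2 (-1.25), Ndufs4 (-1.21) and Atp5e (-1.16). The 7 members that lost their call were Ndufs7 (0.05), Atp5j (0.06), Ndufs3 (-0.16), Ndufa6 (-0.12), Ndufa12 (-0.12), Uqcrb (-0.18) and Cox8a (-0.11), with limma adjusted p from 0.0513 to 0.595. Ndufs1 was called lower at -0.16 (limma adjusted p = 0.0227), and Atp5sl stood at 1.68 and Atp5s at 0.48 (limma adjusted p = 3.05e-05 and 0.0297). Between genotypes in tumor mice, 49 members were called higher in BEBi3-/- against 25.0% of all genes (median 0.23), and 40 in the interaction against 21.2% (median 0.29). A trend fitted over all genes also takes out any real change that follows length, so the values with and without it are given side by side.

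Genes around the chain were described from lists of known roles, and counts are as deposited unless stated; over all genes 40.1% were lower and 39.6% higher in WT, and 18.5% and 14.1% in BEBi3-/-. The 8 chain genes that the symbols above miss, among them cytochrome c (Cycs), Cyc1 and the ATP synthase inhibitor Atpif1, fell in 8 of 8 cases in WT (median -1.43) and in 8 of 8 in BEBi3-/- (median -0.44); Atpif1 differed by -2.85 ± 0.126 and -1.31 ± 0.126. Assembly factors of complex I fell in 10 of 14 and rose in 1 in WT (median -0.43) and fell in 1 in BEBi3-/-, with Acad9, an acyl-CoA dehydrogenase relative needed for assembly, rising by 0.62 ± 0.0808 in WT. Those of complexes II and III fell in 3 of 5 and rose in 1 in WT, and 0 of 5 were called in BEBi3-/-. Those of complex IV fell in 13 of 19 and rose in 3 in WT (median -0.85), with the copper chaperone Cox17 at -1.89 ± 0.103, and those of complex V fell in 3 of 3 (median -0.45).

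Citric acid cycle and pyruvate dehydrogenase genes fell in 14 of 15 cases in WT (median -0.55) and in 6 of 15 in BEBi3-/- (median -0.22); Mdh2 differed by -1.31 ± 0.0963 and -0.45 ± 0.0963. Coenzyme Q synthesis and electron transfer flavoprotein genes fell in 9 of 14 and 4 of 14, with Etfb at -2.36 ± 0.151 and -0.76 ± 0.151. Carriers and import genes fell in 14 of 16 and 12 of 16 (medians -1.13 and -0.34), Tomm20, a receptor of the outer membrane, by 1.49 on the log2 scale in WT. Among regulators of mitochondrial gene expression 6 of 13 rose and 3 fell in WT (median 0.20), a share of rises near that of all genes, with Pprc1 at 0.91 ± 0.102 and the mitochondrial transcription factor Tfb2m at 0.63 ± 0.0868. Gabpa, a subunit of the ETS factor named above, was 0.48 ± 0.0796 higher as deposited and -0.21 with the length and GC trend removed. In BEBi3-/- Myc was the 1 regulator called as deposited (0.60 ± 0.158, limma adjusted p = 0.024). With total-count scaling 6 of 13 regulators were called higher there, against 3815 of all 13011 genes tested. With the trend removed the medians in WT were -0.96 for the chain genes outside the rule, 0.09 for complex I assembly, -0.37 for complex IV assembly, -0.44 for the citric acid cycle and -0.50 for carriers and import. With total-count scaling they were -0.98, 0.02, -0.41, -0.09 and -0.68, so the median of the complex I assembly list in WT turned with either change. Other medians turned with 1 of them: total-count scaling gave 0.03 for the coenzyme Q list (4 lower and 2 higher of 14) and 0.0040 for complex V assembly, and removal of the trend gave 0.09 for complex II and III assembly and -0.10 for the regulators (5 lower and 5 higher). In WT with total-count scaling 8 of 8 chain genes outside the rule were called lower, 12 of 16 carriers and import genes lower and 3 higher, 4 of 15 citric acid cycle genes lower and 2 higher, and 10 of 13 regulators higher and 1 lower. Of all 13011 genes tested, 7023 were called higher and 3525 lower in WT on that scale. In BEBi3-/- 1 of 15 citric acid cycle genes was called lower on it, against 1358 of all genes. With the length and GC trend removed instead, 10 of these 15 were called lower in BEBi3-/- (median -0.23), against 18.8% of all genes.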

How the data were processed

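RNA-seq counts of 8 libraries were used, 2 in each of 4 groups. The submitters' processing notes name Salmon, DESeq2 and the genome build mm10, without versions. The deposited signal values are counts divided by a size factor for each library (normalized counts), and 100% of them gave whole reads within 0.01 when multiplied back. Library depth was 21291892 to 28297319 recovered reads.

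From these, log2(normalized count + 1) was fitted with limma 3.58.1 (R 4.3.3) with a variance trend, 1 mean for each of the 4 groups, over 13011 genes with a mean of at least 10. Tests were two-sided and adjusted by Benjamini-Hochberg over all of these genes, with a threshold of 0.05. Differences are on this log2 scale, which understates changes of low genes. Scaling, filters, pseudocounts, count models on the reads multiplied back (edgeR 4.0.16, DESeq2 1.42.0), left-out libraries and a length and GC correction (12866 genes with a GENCODE transcript) were alternatives, and the fit was tested on simulated data. The members and lists were chosen with earlier results of these data known. Values per library are given for core subunits, for the largest rise and fall in each complex and comparison, and for called members that go against their complex; values of 1 core subunit are not reported here. From other lists, at most 4 genes with the smallest p were named.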

Additional observations from a re-analysis of the deposited data

Results flagged for a closer look

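The tumor effect differed between WT and BEBi3-/- by the test of the interaction in 75 of 80 members (limma, adjusted p below 0.05). Of all genes tested, 27.5% were called higher and 25.4% lower in this test. With the length and GC trend removed, 40 members were called higher and 1 lower, against 21.2% of all genes called higher. The largest differences, as the BEBi3-/- tumor effect minus the WT tumor effect on the log2 scale, were 1.66 for Ndufa7 in complex I, 1.26 for Sdhd in complex II, 1.79 for Uqcrq in complex III, 2.94 for Cox4i2 in complex IV and 1.89 for Atp5e in complex V. The WT tumor libraries also differ from the other 6 in sex and title prefix, and these cannot be told apart from the interaction.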

How the results depend on the processing

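The tumor effect in WT kept its count of members called lower within 1.5 times under every alternative run. Members called higher there were 3 with total-count scaling and 2 with the length and GC trend removed. In BEBi3-/- the members called lower were 44 with total-count scaling, 37 with no variance trend, 39 with the trend removed and 5 with both BEBi3-/- tumor libraries averaged as 1. Leaving out 1 library gave 6 to 72: 6 without either BEBi3-/- tumor library and 13 without BEBi3-/- nontumor replicate 2, where the lone library was assumed to vary like the other groups. Members called higher there were 0 with no variance trend and 0 when averaged, and 0 to 1 with a library left out; all genes called, 4242 as reported, were 2375, 733 and 756 to 5313 in the same order. Between nontumor groups DESeq2 called 21 genes, and leaving out 1 library gave 0 to 5. Among tumor mice, members called lower in BEBi3-/- were 2 with total-count scaling, 1 with array weights, 1 with the compared groups only and 3 with the trend removed (Atp5j, Atp5s and Atp5sl), and 49 were then called higher. In the interaction they were 1 with total-count scaling, 1 with the trend removed and 0 to 1 with a library left out, and 40 were called higher with the trend removed.

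Among members with values per library, these log2 differences reversed. Cox7a1 stood at 0.74 with the trend removed in WT and, between tumor groups, at -0.50 with quantile normalization, -0.74 with the trend removed and -0.16 to 0.76 with a library left out (interaction -0.70 to 0.22). Ndufa10 between nontumor groups was at -0.0068 with upper-quartile scaling, -0.0005 with DESeq2 and -0.0505 to 0.0616 with a library left out, and Atp5sl at -0.0495 to 0.39. Ndufs1 with total-count scaling was at 0.33 in WT, 0.16 in BEBi3-/-, -0.13 between tumor groups and -0.16 in the interaction; in BEBi3-/- it was at 0.0127 with quantile normalization, 0.0004 with TMM, 0.0012 with edgeR and -0.0599 to 0.0317 with a library left out. Ndufs7 with the trend removed was at 0.0537 in WT and 0.0129 in BEBi3-/-. Sdha with total-count scaling was at 0.0851 in WT, -0.18 between tumor groups and -0.16 in the interaction, and at -0.0092 to 0.0248 between tumor groups with a library left out. Elsewhere, with the trend removed, Atp5j was at 0.06 in WT, -0.27 between tumor groups and -0.17 in the interaction, Ndufs5 at 0.07 in BEBi3-/-, and Ndufa6, Ndufa12, Ndufs7, Uqcrb and Cox8a were between -0.15 and -0.02 between tumor groups and in the interaction. Atp5s in the interaction went from 0.03 to -0.32, and to -0.24 with total-count scaling. Between nontumor groups Ndufa13 and Ndufs1 were at 0.0095 and 0.03 with total-count scaling, and Ndufa6, Ndufb2 and Ndufb7 between 0.0013 and 0.01 with the trend removed. Without the 100 most abundant genes the log2 ratio of the members' share was -1.35 in WT and -0.36 in BEBi3-/-, and the geometric mean gave -1.61 in WT. The causes were not tested.

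The WT groups share title numbers 7 and 8, and the correlation over genes of same-numbered deviations was -0.2559. One such value from 2 libraries a group cannot show whether the numbers pair the libraries. A replicate block on the title numbers gave 76 members lower, 1 higher and 9305 genes called. The crossed numbers, chosen after seeing the data, gave 76, 1 and 10678. Values of the restricted isoforms of complex IV rest on few reads.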
